A study of Mus musculus with 6 samples.

Results

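Transcript levels of 10 genes that mark the mesothelium were followed in mouse peritoneum: Msln, Upk3b, Upk1b, Lrrn4, Krt19, Wt1, Bnc1, Rspo1, Gpm6a and Muc16. They were chosen as a list of known mesothelial markers and matched by symbol, and all 10 were found among the 14943 gene symbols of the deposited count table. All 10 also passed the filter on low counts that left 13980 genes for testing. The tissue came from wild-type male C57BL/6J mice, aged 8 weeks. Of the 6 libraries, 3 are controls from mice injected with saline, and 3 are from mice with experimental encapsulating peritoneal sclerosis (EPS), in which fibrous tissue wraps the bowel. EPS mice were injected into the peritoneal cavity every day with dialysis solution (4.25%, 100 mL/kg) and with SHS (0.3 mL; the labels do not spell the name out), plus lipopolysaccharide, the endotoxin of Gram-negative bacteria, at 4 mg/kg each week, and tissue was collected in week 3. The agents were given together, so their effects cannot be told apart, and the labels do not say whether each library is 1 animal. The p-values therefore measure only the spread between these libraries, which may be technical.

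The mesothelium is the single layer of flat cells that lines the abdominal wall and covers the organs, and it is the surface that dialysis fluid meets. Mesothelial cells carry an unusual mix of features: the keratins and apical glycoproteins of an epithelium, the transcription factor WT1 of their mesodermal origin, and the ability to take on a fibroblast-like state after injury. Loss of this layer is a known feature of peritoneal sclerosis. The comparison asks how much of the mesothelial transcript programme was present in the EPS peritoneum, library by library.

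Library totals lay between 15419232 and 17684229 counts. Levels are given as CPM, read counts relative to library sizes that were scaled by TMM, a factor that corrects for differences in RNA composition. EPS 1 carried RNA of the exocrine pancreas: the summed level of 23 digestive enzyme and related genes was 219220 CPM there. It was 237 CPM in EPS 2, 721 in EPS 3, and 5148.5, 4849 and 452 in controls 1 to 3. Controls 1 and 2 lay closer to each other (mean chi-square per gene 4.41) than either did to control 3 (15.9 and 16.4); counting noise alone gives about 1, so they were kept as separate samples. The 10 mesothelial genes were detected in every library, at 165 to 255 CPM summed in controls, while 6 adipocyte markers summed to 15756 to 16577 CPM, and to 1129 to 1724 CPM in EPS, where all 6 fell. The part of this difference in the mesothelial levels was not tested.

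No mesothelial gene passed the test between EPS and control. By edgeR's quasi-likelihood test with Benjamini-Hochberg adjustment over all tested genes, 0 of the 10 were called at an adjusted p under 0.05, against 59.6% of all tested genes, and 0 had an unadjusted p under 0.05. DESeq2 also called 0, with 1 at an unadjusted p under 0.05, and limma-voom called 1, Upk3b. The median log2 fold change of the 10 was -0.13, beside -0.02 over all genes. The levels were instead split by library. EPS 3 was the lowest of the 6 libraries for all 10 genes, and control 3 was the lowest control for all 10. Over all tested genes, counted within each group, EPS 3 was the lowest EPS library for 35.9% and control 3 the lowest control for 36.7%. The share of all genes with EPS 3 lowest of the 6 libraries was not computed. Summed over the 10 genes, controls 1 to 3 held 249.95, 255 and 165 CPM, and EPS 1 to 3 held 239, 255 and 72.1 CPM. In this sum EPS 1 and EPS 2 were close to controls 1 and 2, and EPS 3 lay below every control. Krt19 alone gave 81.0 CPM of the EPS 2 sum, against 12.9 to 20.1 CPM in controls. It held 31.7% of the reads of the 10 genes in EPS 2 and 7.74% to 7.87% in controls. The closeness of EPS 2 to controls 1 and 2 thus rests in part on this 1 gene. With CPM on plain library totals the sums were 217.5, 218.5 and 145 in controls and 224, 327 and 91.8 in EPS, so EPS 2 then stood above the controls and EPS 3 was again the lowest. In bulk tissue, fewer mesothelial cells and less RNA per cell cannot be told apart.

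**Figure D1:**
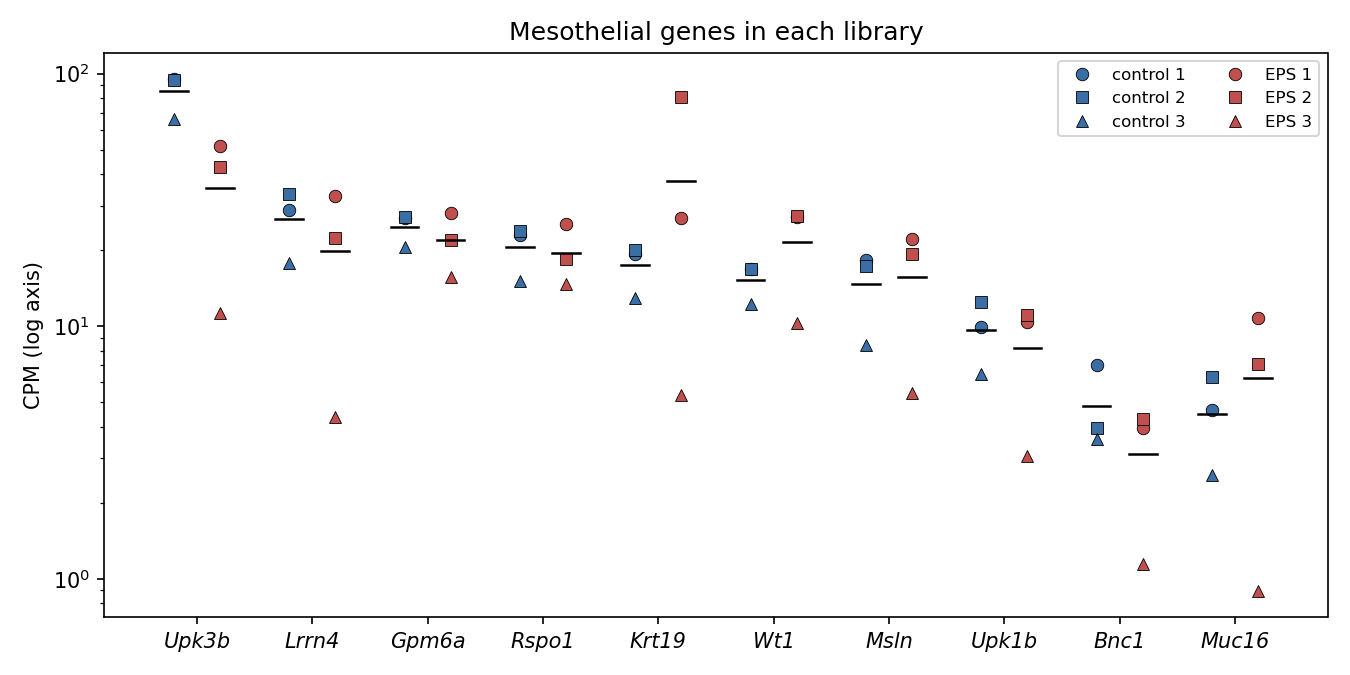
Level of each mesothelial gene in each library, in CPM on a log axis; blue, control; red, EPS; circle, square and triangle, replicates 1, 2 and 3; the black line is the group mean (n = 3). The triangle of EPS 3 is the lowest point of every gene, and Upk3b is the only gene whose EPS points all lie below its control points.

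Upk3b, which encodes a uroplakin, a membrane glycoprotein of urothelium and mesothelium (chromosome 5, 136038496 to 136046487, plus strand), was the most abundant of the set in controls. It stood at 95.5, 94.4 and 65.8 CPM in controls 1 to 3 and at 51.6, 42.7 and 11.3 CPM in EPS 1 to 3. Every EPS library lay below every control, and Upk3b was the only one of the 10 genes whose groups did not overlap, where 68.5% of all tested genes had groups that did not. The means were 85.2 ± 16.8 CPM (SD, n = 3) and 35.2 ± 21.1 CPM. The log2 fold change was -1.28 ± 0.55 (SE), with a 95% interval from -2.67 to 0.11, and the adjusted p was 0.0967 in edgeR. Without EPS 3, edgeR called Upk3b lower, by 1.81-fold (log2 fold change -0.86 ± 0.19, adjusted p = 0.00738). Over all alternatives its adjusted p ranged from 0.0017 to 0.196.

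Upk1b, a tetraspanin that forms part of the uroplakin complex (chromosome 16, 38773184 to 38800328, minus strand), did not follow Upk3b. It measured 9.93, 12.4 and 6.48 CPM in controls and 10.4, 11.1 and 3.07 CPM in EPS 1 to 3. EPS 1 and EPS 2 lay among the controls, and only EPS 3 was below them. The log2 fold change was -0.23 ± 0.48 (edgeR adjusted p = 0.692). The urothelial partners Upk1a, Upk2, Upk3a and the mesothelial Upk3bl were not analysed here.

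Msln encodes mesothelin, a surface glycoprotein that defines mesothelium in most atlases (chromosome 17, 25748613 to 25754378, minus strand). Its levels were 18.4, 17.3 and 8.40 CPM in controls and 22.1, 19.4 and 5.45 CPM in EPS 1 to 3. EPS 1 and EPS 2 were above all controls and EPS 3 below all of them. The means were 14.7 ± 5.47 and 15.6 ± 8.93 CPM (SD, n = 3), with a log2 fold change of 0.09 ± 0.54 (edgeR adjusted p = 0.901). The 95% interval ran from 0.430-fold to 2.63-fold, so the data do not show that Msln was equal in the groups.

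Muc16, the membrane mucin also known as CA125 and a binding partner of mesothelin (chromosome 9, 18495455 to 18674530, minus strand), had the fewest reads relative to its length. It gave 65, 95 and 39 reads in controls and 155, 151 and 18 reads in EPS 1 to 3, or 4.64, 6.28 and 2.58 CPM against 10.7, 7.09 and 0.892 CPM. Like Msln, it was highest in EPS 1 and EPS 2 and lowest in EPS 3, which lay 12.045-fold below EPS 1. The log2 fold change was 0.46 ± 0.79 (edgeR adjusted p = 0.635), and without EPS 3 it was 0.98 ± 0.38 (adjusted p = 0.0624).

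Lrrn4 and Gpm6a encode membrane proteins first known from neurons. Lrrn4, a leucine-rich repeat protein (chromosome 2, 132868305 to 132880891, minus strand), stood at 28.8, 33.2 and 17.7 CPM in controls and at 32.7, 22.3 and 4.36 CPM in EPS 1 to 3. The drop from EPS 1 to EPS 3 was 7.50-fold, and the log2 fold change between the groups was -0.43 ± 0.69 (edgeR adjusted p = 0.619). Gpm6a, a proteolipid of the plasma membrane (chromosome 8, 54954843 to 55060871, plus strand), varied far less, at 26.7, 27.0 and 20.5 CPM in controls and 28.0, 21.9 and 15.6 CPM in EPS. Its log2 fold change of -0.18 ± 0.22 (edgeR adjusted p = 0.506) had the narrowest interval of the set, from -0.70 to 0.335.

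Wt1 encodes a zinc finger transcription factor that marks mesothelium from the embryo onwards and is also made by stromal progenitors of visceral fat (chromosome 2, 105126529 to 105173616, plus strand). It measured 16.8, 16.8 and 12.2 CPM in controls and 27.2, 27.3 and 10.3 CPM in EPS 1 to 3. EPS 1 and EPS 2 were nearly equal and lay above every control, while EPS 3 lay below every control. The log2 fold change was 0.49 ± 0.36 (edgeR adjusted p = 0.273). Without EPS 3, Wt1 was called higher, by 1.78-fold (0.83 ± 0.17, adjusted p = 0.00454 in edgeR), and with library totals in place of TMM it was called higher with all libraries (0.89, adjusted p = 0.0343). Over all alternatives its adjusted p ranged from 0.00454 to 0.565.

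Bnc1 encodes basonuclin 1, a zinc finger protein of keratinocytes, germ cells and mesothelium (chromosome 7, 81966672 to 81992292, minus strand). Its levels were 6.999, 3.96 and 3.57 CPM in controls and 3.95, 4.28 and 1.14 CPM in EPS 1 to 3. The EPS libraries overlapped the controls, with EPS 3, at 23 reads, below all others (log2 fold change -0.64 ± 0.51, edgeR adjusted p = 0.311). The gene 4833418N17Rik overlaps an exon of Bnc1 on the opposite strand, and Gm12930 overlaps an exon of Rspo1 on its opposite strand. Neither was analysed here. No strand-marking step is described for these libraries, and reads of such partners could then have been counted with Bnc1 or Rspo1.

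Rspo1 encodes R-spondin 1, a secreted protein that strengthens Wnt signalling by sparing Frizzled receptors from breakdown (chromosome 4, 124986430 to 125009099, plus strand). It stood at 22.9, 23.9 and 15.1 CPM in controls and at 25.3, 18.5 and 14.7 CPM in EPS 1 to 3. The groups overlapped and EPS 3 was close to control 3 (log2 fold change -0.08 ± 0.25, 95% interval -0.66 to 0.49, edgeR adjusted p = 0.789).

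Krt19, a keratin of simple epithelia and mesothelium (chromosome 11, 100140810 to 100148665, minus strand), had the widest spread. It was at 19.4, 20.1 and 12.9 CPM in controls and at 26.7, 81.0 and 5.35 CPM in EPS 1 to 3. EPS 2 stood 3.03-fold above EPS 1 and 15.1-fold above EPS 3. The log2 fold change was 1.11 ± 0.95 (edgeR adjusted p = 0.358). It was 1.63 without EPS 3, where Krt19 was called higher (adjusted p = 0.046), and -0.13 without EPS 2. Over all alternatives the adjusted p ranged from 0.046 to 0.882.

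**Figure D2:**
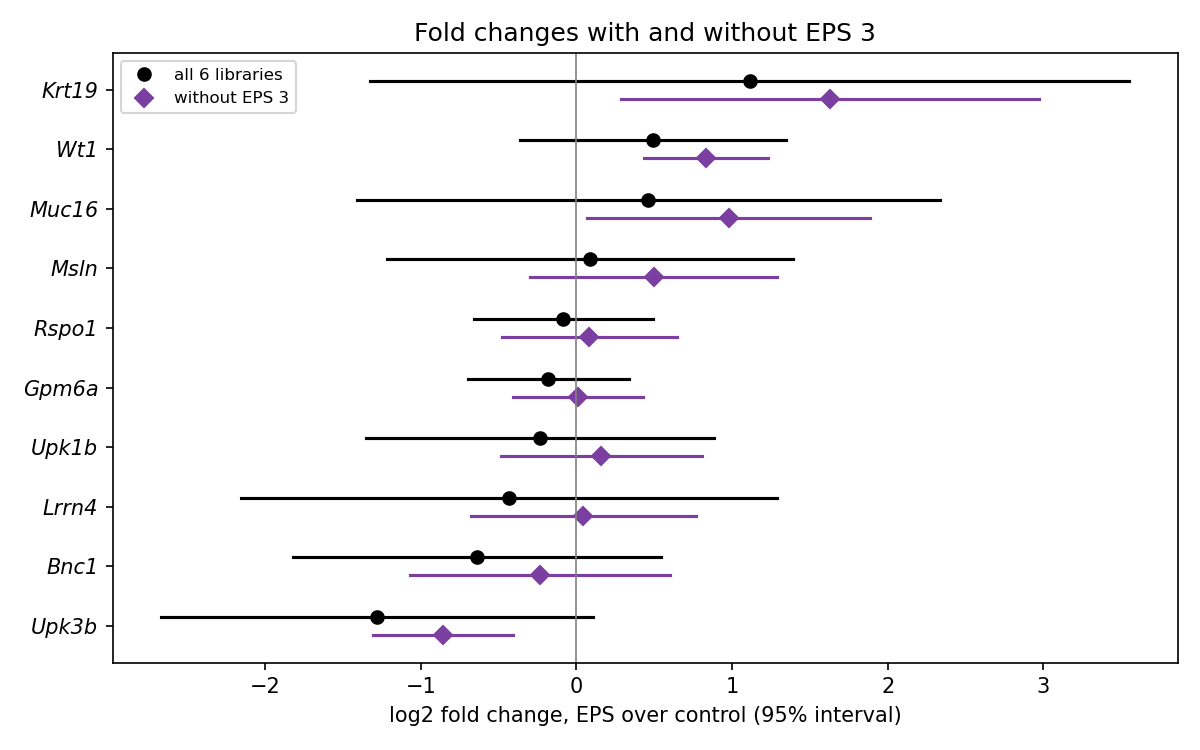
Log2 fold change of each gene between EPS and control with its 95% interval; black, all 6 libraries; purple, without EPS 3. With all libraries each interval includes 0, and without EPS 3 those of Upk3b (below 0) and of Wt1, Krt19 and Muc16 (above 0) do not, although Muc16 did not pass after adjustment.

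Leaving out EPS 3, edgeR called 2 of the 10 genes higher, Wt1 and Krt19, and 1 lower, Upk3b. That is 3 of 10, where 58.8% of all genes were called in the same fit and 29.5% were called higher. With control 3 left out as well, Wt1 (log2 fold change 0.69) and Upk3b (-1.01) were called, and Krt19 was not. Leaving out both libraries was chosen after seeing the data. Within EPS, the genes were not reduced equally in EPS 3. Relative to the mean of EPS 1 and EPS 2, the EPS 3 level was 0.670 for Rspo1, 0.626 for Gpm6a and 0.379 for Wt1. It was 0.240 to 0.286 for Upk3b, Msln, Bnc1 and Upk1b, 0.158 for Lrrn4, and 0.100 and 0.0994 for Muc16 and Krt19. Gpm6a is also made by neurons. The 6 nerve and glia markers (4 lower in EPS, none at 0) summed to 142 to 143 CPM in controls and to 46.3, 64.0 and 57.2 CPM in EPS 1 to 3, and their part in the Gpm6a levels was not tested.

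Markers of other cells differed among the EPS libraries as well. The summed level of 3 T cell genes (3 of 3 called higher in EPS; 1.45 to 1.71 CPM in controls) was 95.5, 124 and 201 CPM in EPS 1 to 3, and that of 5 neutrophil genes (5 of 5 higher; 4.10 to 4.89 CPM in controls) 497, 605 and 1440 CPM. That of 4 smooth muscle genes (2 of 4 lower; 2805 to 3136 CPM in controls) was 795, 2144 and 544 CPM. The 4 stromal genes of the submesothelium that were in the table (1 higher, 1 lower) summed to 232 to 249 CPM in controls and to 242, 258 and 145 CPM in EPS 1 to 3. None of these markers was at 0 in any EPS library. Their part in the low mesothelial levels of EPS 3 was not tested.

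Between genes, levels were compared per kilobase of exon. In controls Upk3b led with 24.1 ± 4.76 CPM per kilobase (SD, n = 3). Rspo1 (10.6 ± 2.49), Krt19 (9.41 ± 2.13), Gpm6a (7.69 ± 1.14) and Lrrn4 (7.16 ± 2.15) followed, and each differed from its neighbour in this order by less than the larger SD. Msln (4.79 ± 1.79) and Upk1b (4.60 ± 1.43) were likewise not separated. Wt1 (2.47 ± 0.43), Bnc1 (1.04 ± 0.40) and Muc16 (0.171 ± 0.0703) came last. The order differed between EPS libraries. In EPS 1 Upk3b (14.6 CPM per kilobase) was still first, just ahead of Krt19 (14.4) and Rspo1 (13.1). In EPS 2 Krt19 (43.6) was far above Upk3b (12.1), and in EPS 3 Rspo1 (7.57) and Gpm6a (4.85) were above Upk3b (3.20).

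A ratio of reads within a library does not depend on how libraries are scaled, so the genes were also set against Upk3b. This reference was chosen after its values were seen, as the only one of the 10 genes with every EPS library below every control. The ratios therefore describe that difference again, on another scale, and carry no test. For every 100 reads of Upk3b controls 1 to 3 had 17.6, 17.9 and 18.6 reads of Wt1, while EPS 1 to 3 had 52.7, 63.9 and 91.2. The ratio was thus 18.01 ± 0.525 in controls and 69.3 ± 19.8 in EPS (SD, n = 3), a 3.85-fold difference with no overlap. EPS 3, the library with the lowest level of each of the 10 genes, had the highest ratio.

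Msln read the same way, with 19.2, 18.4 and 12.8 reads per 100 Upk3b reads in controls and 42.9, 45.4 and 48.3 in EPS, so that all EPS libraries agreed closely (45.5 ± 2.69). Upk1b, the partner of uroplakins, had 10.4, 13.2 and 9.85 against 20.2, 26.0 and 27.2. All 9 other genes were higher relative to Upk3b in every EPS library than in any control. The difference of the mean ratios was least for Bnc1 (1.64-fold, with control 1 at 7.33 and EPS 1 at 7.66) and Lrrn4 (1.67-fold), and greatest for Krt19 (4.73-fold), whose ratio in EPS 2 was 189.8. Since all 9 ratios share the Upk3b reads, they are not independent of each other. Among all tested genes, 60.3% had every EPS library above every control on this measure.

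**Figure D3:**
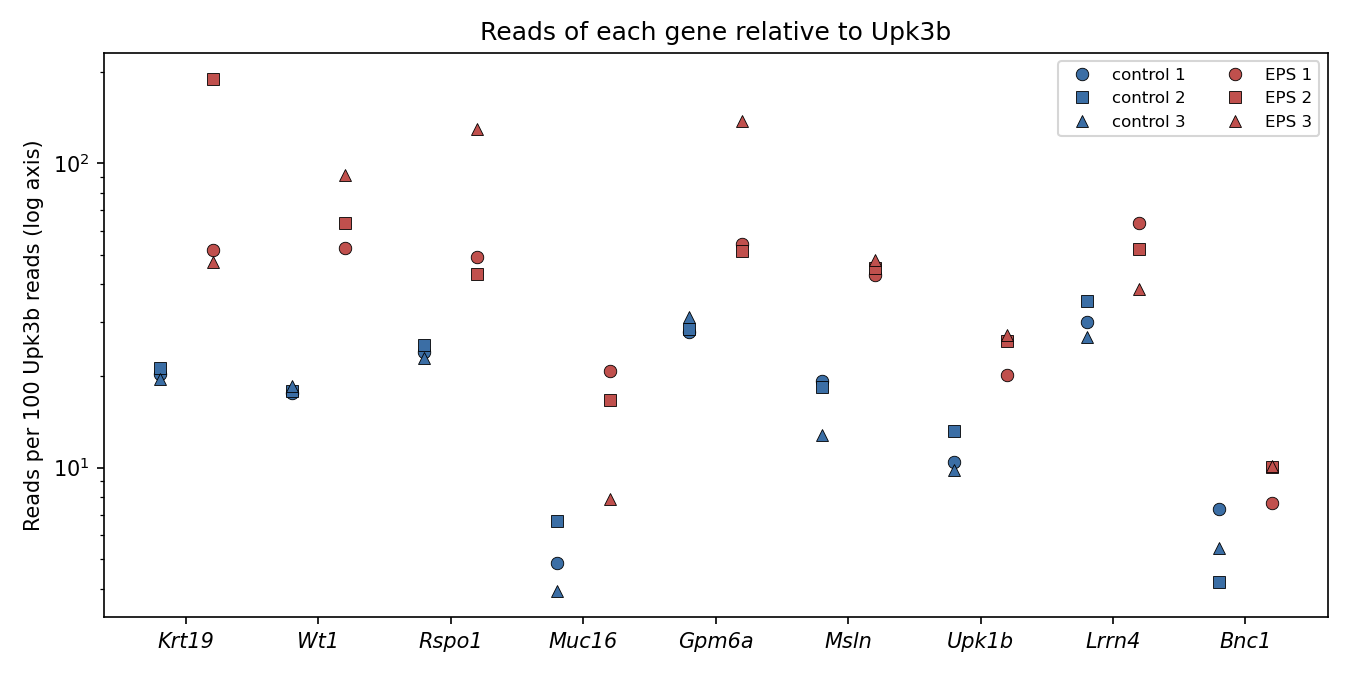
Reads of each gene per 100 reads of Upk3b in the same library, on a log axis; blue, control; red, EPS; circle, square and triangle, replicates 1, 2 and 3. Each red group lies above its blue group, with a wide gap for Wt1 (controls 17.6 to 18.6, EPS 52.7 to 91.2) and a narrow one for Bnc1.

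Upk3b accordingly took a smaller share of the reads of the set. It held 38.2% (exact 95% interval 36.6 to 39.8), 36.96% (35.4 to 38.5) and 39.8% (37.9 to 41.8) of the summed reads of the 10 genes in controls 1 to 3. In EPS 1 to 3 it held 21.6% (20.2 to 23.0), 16.7% (15.7 to 17.7) and 15.7% (13.8 to 17.6). The intervals cover counting error only. The share of Wt1 moved the other way, from 6.71% (5.91 to 7.59), 6.60% (5.84 to 7.43) and 7.40% (6.41 to 8.50) to 11.4% (10.3 to 12.5), 10.7% (9.86 to 11.5) and 14.3% (12.5 to 16.2). The share of Msln was also higher in every EPS library, at 9.26%, 7.58% and 7.555% against 7.34%, 6.78% and 5.08%. Its counting intervals in EPS 2 (6.89 to 8.315) and EPS 3 (6.25 to 9.03) overlapped that of control 1 (6.5 to 8.26). Those of Upk3b and Wt1 did not overlap between the groups. For these 3 genes the exact two-sided permutation p was 0.1, the smallest that 3 against 3 allows, so that no share could reach 0.05, and it was 0.333 after Benjamini-Hochberg adjustment over the 10 genes. Shares sum to a whole, so a smaller share of Upk3b enlarges the others. Krt19 held 31.7% of the reads in EPS 2, which shrinks the other shares there. Without Krt19, Upk3b held 41.4%, 40.1% and 43.2% in controls and 24.3%, 24.45% and 16.9% in EPS 1 to 3. Wt1 then held 7.28%, 7.16% and 8.03% in controls and 12.8%, 15.6% and 15.4% in EPS.

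Ratios were then taken between all members. Of the 45 pairs among the 10 genes, 17 had ratios that did not overlap between the groups, 9 of them with Upk3b, whereas 69.3% of all pairs of tested genes had such ratios. Wt1 was higher relative to 5 of its 9 partners (Upk3b, Lrrn4, Upk1b, Bnc1 and Gpm6a), where 25.1% of all tested genes were lower relative to Wt1 in every EPS library. Lrrn4 was lower relative to 4 and higher relative to Upk3b alone. The closest profiles over the 6 libraries belonged to Rspo1 and Gpm6a, whose log2 CPM, each centred on its mean, differed by a root mean square of 0.11. Msln and Upk1b came next, at 0.24. Upk3b was nearest to Lrrn4, at 0.43, and Krt19 differed from each other gene by between 0.69 (Muc16) and 1.16 (Upk3b). These distances describe 6 libraries that share a scaling.

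Promoter sequence is shown for the genes at the ends of this comparison: Upk3b and its nearest neighbour Lrrn4, and the closely matched Rspo1 and Gpm6a. The sequences are the 250 bases before the annotated start, 5′ to 3′ on the strand of the gene, from the RefSeq promoter table of GRCm38.p6, which held 6 of the 10 genes. Capitals mark matches, on either strand, to any of 6 motifs. The first, GCGTGGG, is the core of the sites that WT1 and EGR proteins share. For TEAD factors, which act with YAP, the letters searched were GGAATG in either orientation. For the family of GATA factors, which includes mesothelial members, they were AGATAA. The promoter box bound by the TBP protein was searched as TATAAA only. Binding sites of SP and KLF factors were represented by the letters GGGCGG. The box recognised by the ZEB and SNAI repressors was searched as CACCTG only. Gpm6a has a pair of annotated starts.
Upk3b, chr5:136038246-136038495, plus strand: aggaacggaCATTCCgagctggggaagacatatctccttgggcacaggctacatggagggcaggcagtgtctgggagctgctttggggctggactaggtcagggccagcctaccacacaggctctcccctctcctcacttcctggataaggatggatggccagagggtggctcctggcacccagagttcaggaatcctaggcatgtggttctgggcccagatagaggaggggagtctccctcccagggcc
Lrrn4, chr2:132880863-132881112, minus strand: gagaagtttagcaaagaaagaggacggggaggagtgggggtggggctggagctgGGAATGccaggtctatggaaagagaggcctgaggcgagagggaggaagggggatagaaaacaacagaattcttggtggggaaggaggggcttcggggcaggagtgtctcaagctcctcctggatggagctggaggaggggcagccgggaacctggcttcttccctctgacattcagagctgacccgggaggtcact
Rspo1, chr4:124986180-124986429, plus strand: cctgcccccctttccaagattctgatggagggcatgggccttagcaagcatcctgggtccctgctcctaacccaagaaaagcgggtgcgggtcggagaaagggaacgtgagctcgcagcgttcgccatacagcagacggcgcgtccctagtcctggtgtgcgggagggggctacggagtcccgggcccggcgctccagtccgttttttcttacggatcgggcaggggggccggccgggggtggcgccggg
Gpm6a upstream start, chr8:54779184-54779433, plus strand: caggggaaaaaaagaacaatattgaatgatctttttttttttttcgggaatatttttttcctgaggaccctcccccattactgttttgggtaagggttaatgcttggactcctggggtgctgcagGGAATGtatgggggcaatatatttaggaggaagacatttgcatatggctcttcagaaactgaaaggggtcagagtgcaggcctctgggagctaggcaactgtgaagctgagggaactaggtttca
Gpm6a downstream start, chr8:54954478-54954727, plus strand: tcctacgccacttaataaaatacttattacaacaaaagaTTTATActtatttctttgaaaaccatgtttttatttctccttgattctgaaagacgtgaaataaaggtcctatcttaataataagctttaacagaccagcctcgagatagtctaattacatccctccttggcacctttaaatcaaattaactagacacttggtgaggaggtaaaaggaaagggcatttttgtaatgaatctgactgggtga

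The TEAD motif was found in the Upk3b window, printed as its reverse complement, at position -241 from the start, in the Lrrn4 window at -196 and in the upstream Gpm6a window at -125. It occurs in 12.6% of all 32851 promoter windows of that length. The Rspo1 window held none of the 6 motifs. No match overlapped another. The TBP box was found once, on the opposite strand of the downstream Gpm6a window (12.4% of all windows hold it). The SP and KLF motif was found only in the window of Bnc1, which is not shown (32.7% of all windows). The WT1, GATA and ZEB motifs occurred in none of the 7 windows of the 6 genes, and in 4.3%, 9.99% and 17.2% of all windows. A match is a run of letters and not evidence of binding.

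Genes outside the set were ranked by likeness to Msln and to Upk3b, with the same root mean square measure over the 6 libraries, among 11252 genes with a mean of at least 5 CPM. Nearest to Msln were Krt7, a keratin of simple epithelia and mesothelium (0.26), Fndc1 (0.32), Bnc2, the relative of Bnc1 (0.33), Enpp3, an ectoenzyme (0.33), and Bmp3, a secreted factor of the TGF-beta superfamily (0.37). Krt7 read 8.07, 7.86 and 5.42 CPM in controls and 10.3, 8.60 and 1.83 CPM in EPS 1 to 3. As for Msln, EPS 3 was the lowest library and control 3 the lowest control. Nearest to Upk3b were Samd12 (0.20), the transcription factor gene Sox5 (0.23), Gstm7, a glutathione transferase (0.24), Kcnn3, a potassium channel (0.24), and Mapt, which encodes tau (0.28). Samd12 fell from 8.69 ± 1.36 to 2.65 ± 1.60 CPM (SD, n = 3; edgeR adjusted p = 0.0162). Sox5 and Gstm7 were also called lower, and Kcnn3 and Mapt were not called. All of these genes were picked for their likeness over the same 6 libraries. Their directions therefore follow from the choice, and their calls are not separate evidence.

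Other genes that mesothelial cells express, from a list of 20, were called in both directions. Of 19 tested, 6 were called higher and 4 lower by edgeR, and 9 were not called; the median log2 fold change was 0.15. Over all 13980 tested genes, 4088 were called higher and 4245 lower, 59.6% in all, so the share called in the list was near the background. The count was 8 and 5 without EPS 3. The 4 that fell were Cldn15, a claudin of tight junctions, from 38.3 ± 4.45 to 13.8 ± 1.68 CPM (SD, n = 3; edgeR adjusted p = 8.26e-05), Tjp1, the tight junction scaffold ZO-1 (log2 fold change -0.87 ± 0.17), Rarres2, which encodes chemerin and is also made by fat cells (-1.11 ± 0.14), and the retinaldehyde dehydrogenase gene Aldh1a1 (-1.89 ± 0.34).

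Those that rose were Ezr, for ezrin, which links the membrane to actin (2.97 ± 0.11), the protease inhibitor gene Slpi (3.34 ± 0.46), Aldh1a2, which makes retinoic acid (1.30 ± 0.23), complement C3 (1.26 ± 0.18), Ildr2 (1.04 ± 0.19) and podoplanin, Pdpn (0.96 ± 0.16). White blood cells or macrophages also make Ezr, Slpi and C3, and lymphatic endothelium makes Pdpn. Of 4 lymphatic markers 3 rose and none was at 0 in any library. They summed to 261 to 275 CPM in controls and 729 to 1457 CPM in EPS. Most of the difference in this sum came from the chemokine gene Ccl21a, at 52.0 ± 5.83 CPM in controls and 762 ± 304 CPM in EPS (SD, n = 3). Lyve1 rose by 0.53 ± 0.15 and Prox1 by 1.28 ± 0.19 on the log2 scale. The part of these lymphatic markers in the rise of Pdpn was not tested.

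**Figure D4:**
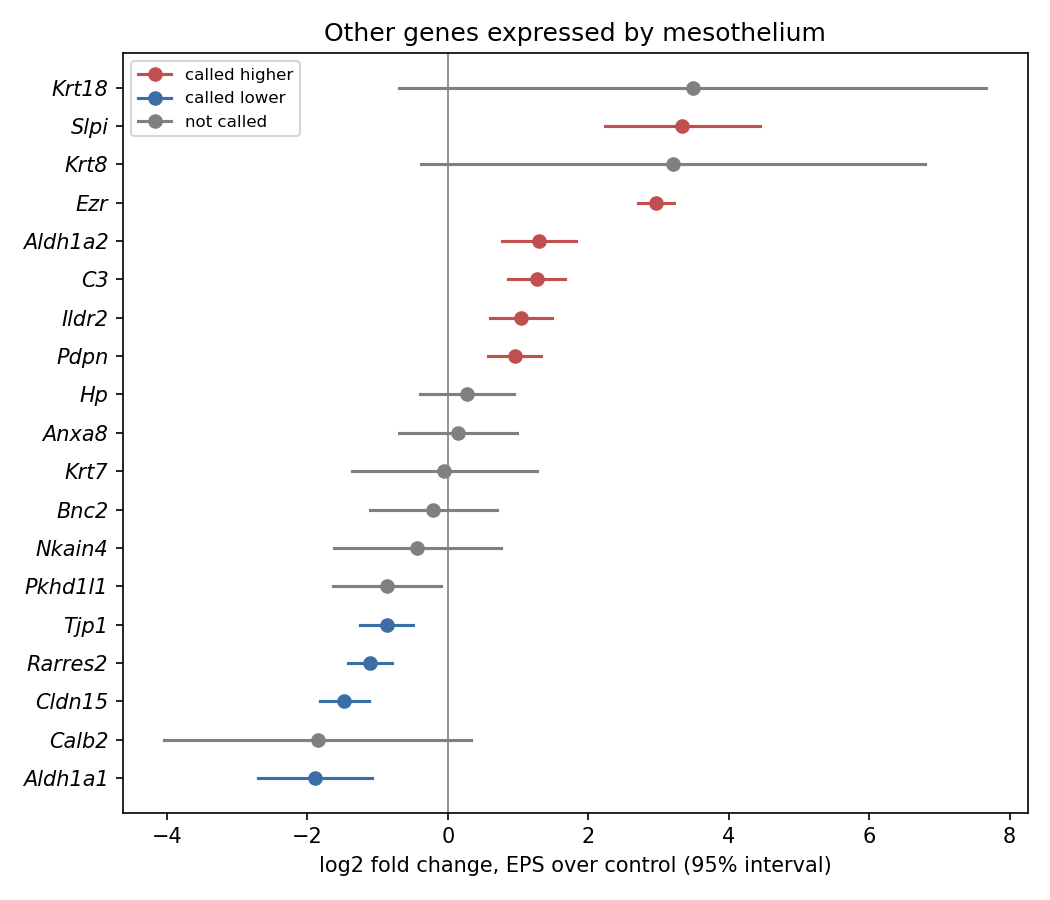
Log2 fold change of 19 other genes that mesothelial cells express, with 95% intervals (EPS over control, all 6 libraries); red, called higher; blue, called lower; grey, not called. Ezr, Slpi, Aldh1a2, C3, Ildr2 and Pdpn lie above 0, and Aldh1a1, Cldn15, Rarres2 and Tjp1 below it.

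Among the remaining keratins, Krt7 stayed within the pattern of Msln, whereas Krt8 and Krt18, the keratin pair of simple epithelia, did not. Krt8 stood at 5.21, 5.15 and 2.65 CPM in controls and at 86.3, 32.8 and 1.88 CPM in EPS 1 to 3, and Krt18 at 4.499, 5.02 and 2.12 against 105.9, 23.8 and 1.49 CPM. Neither was called (edgeR adjusted p = 0.104 and 0.122), since EPS 1 and EPS 2 were high and EPS 3 was the lowest library.

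General epithelial markers were, like Krt19, Krt8 and Krt18, higher in EPS 1 and EPS 2 than in EPS 3. In EPS 3 these keratins lay below every control, and the general markers were divided. Epcam, Cdh1, Cldn7 and Cldn4 lay above every control there. Esrp1 (0.0495 CPM, controls 0.331 to 0.928) and Krt14 (0.297 CPM, controls 0.331 to 0.991) lay below every control. Of 8 general epithelial markers all were in the table, 5 were tested, 3 rose and none fell; they summed to 1.72 to 4.56 CPM in controls and to 163, 134 and 17.9 CPM in EPS 1 to 3. Epcam, an adhesion molecule that mesothelium largely lacks, was at 0.714, 0.727 and 0.463 CPM in controls and at 24.1, 43.2 and 8.37 CPM in EPS, highest in EPS 2 as Krt19 was. Cdh1, E-cadherin, reached 98.0, 44.0 and 7.08 CPM in EPS. Elf3 had no read in any control or in EPS 3, and Grhl2 none in EPS 3.

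The 23 exocrine pancreas genes were by far highest in EPS 1 (22 tested, none called), with Prss1 at 0 in EPS 2 and EPS 3. Controls 1 and 2, at 5148.5 and 4849 CPM summed, lay above control 3 (452), EPS 2 (237) and EPS 3 (721). The 5 pancreatic duct markers summed to 4.63 to 7.80 CPM in controls and to 194, 20.6 and 5.94 CPM in EPS 1 to 3, with Cftr and Onecut1 at 0 in EPS 2 and EPS 3. Of 6 intestinal markers, 1 rose and 1 fell. Cdh17 rose from 0.367 ± 0.318 to 3.73 ± 1.525 CPM, and Lgals4 fell from 24.4 ± 1.14 to 6.43 ± 1.57 CPM (SD, n = 3). The sum of the 6, mostly Lgals4 in controls, was 26.4 to 28.0 CPM in controls and 8.72 to 14.5 CPM in EPS. Cdx2 and Fabp2 were at 0 in all EPS libraries. Of the urothelial list Krt20 and Krt5 were analysed: Krt20 was at 24.5 CPM in EPS 1, at 0 in EPS 2 and at 0.248 CPM in EPS 3, and Krt5 at 3.81 CPM in EPS 2. The part of these cell types in the Krt19 levels was not tested.

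**Figure D5:**
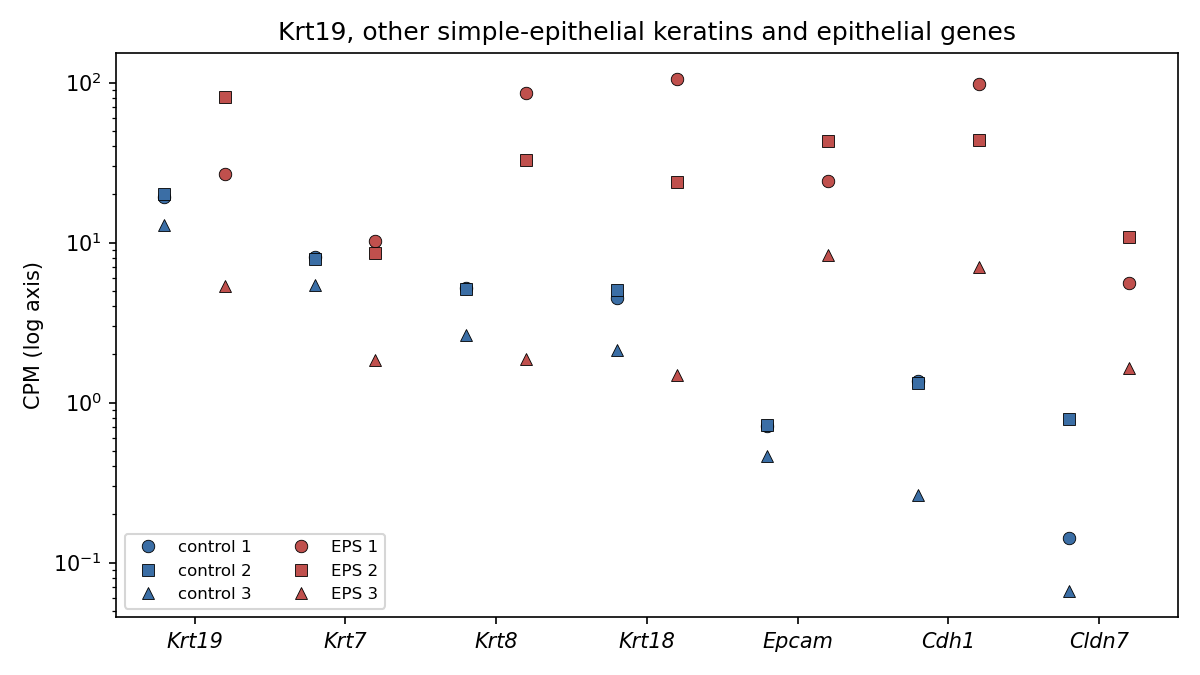
Level of Krt19, of 3 other keratins of simple epithelia and of 3 epithelial genes in each library, in CPM on a log axis; blue, control; red, EPS; circle, square and triangle, replicates 1, 2 and 3. EPS 2 (red square) is highest for Krt19, Epcam and Cldn7 and EPS 1 (red circle) for Krt7, Krt8, Krt18 and Cdh1, while Krt7 in EPS 1 and EPS 2 is only slightly above controls.

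Partners and relatives of the 10 genes were followed as well. On the R-spondin axis 7 genes were tested and 1 was called: Rnf43, a ubiquitin ligase that R-spondins inhibit and that Wnt signalling induces, rose from 0.334 ± 0.234 to 9.96 ± 3.40 CPM (SD, n = 3; edgeR adjusted p = 8.76e-05). The receptor gene Lgr4 stood at 28.4 ± 0.828 CPM in controls and 15.5 ± 7.08 CPM in EPS (adjusted p = 0.057, edgeR), and the Wnt target Axin2 was not called (-0.32 ± 0.15). Of the tetraspanins related to Upk1b, Cd9, Cd81 and Cd151 fell and Cd82 rose. Gpm6b, the nearest relative of Gpm6a, rose by 0.62 ± 0.18 on the log2 scale, and Lrrn2 by 1.09 ± 0.17. Among partners of WT1, the co-repressor gene Basp1 rose by 2.94 ± 0.27 and Wtip fell by 1.52 ± 0.14, while Wtap was not called.

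Genes of the mesenchymal transition, which mesothelial cells can undergo, were read beside the set. Of 9, 1 rose and 5 fell. Cdh2, N-cadherin, which mesothelium also expresses, rose by 0.60 ± 0.16, and Vim, Zeb1, Zeb2, Twist1 and Acta2 fell, by 0.62 ± 0.14, 0.40 ± 0.13, 0.48 ± 0.17, 2.14 ± 0.56 and 1.25 ± 0.35 on the log2 scale. Snai1 and Snai2 were at 9.04 ± 2.20 and 4.48 ± 0.91 CPM in controls and at 12.5 ± 0.97 and 6.54 ± 1.45 CPM in EPS, and neither was called. All of these are also expressed by stromal or muscle cells of the tissue.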

How the data were processed

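RNA-seq of poly-A RNA from mouse peritoneum gave 3 control and 3 EPS libraries. The deposited values are raw read counts per gene symbol on genome build mm10, per the submitters' processing notes. The aligner, counter and gene models: not given in the sources used here. Members and lists were chosen with earlier results of these data known. Genes were kept by filterByExpr, and the groups were tested with edgeR 4.0.16 (TMM, robust quasi-likelihood test, Benjamini-Hochberg over all tested genes, called at an adjusted p under 0.05) in R 4.3.3. Standard errors are the log2 fold change divided by the square root of F. The fit was tested on simulated data. DESeq2 1.42.0 and limma-voom (limma 3.58.1), other scalings, no filter, a replicate block and leaving out libraries were alternatives. Exon lengths and positions come from GENCODE vM21 (mm10), and promoters from the RefSeq GRCm38.p6 table. Log2 CPM for likeness used a prior count of 2.

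All 10 members are named. From the mesothelial, family and partner lists any gene could be named, from each other list up to 4 called genes of lowest p, and for likeness to Msln and Upk3b 5 genes each with a mean of at least 5 CPM. Markers at 0, and Cldn4, Esrp1 and Krt14, were named after their values were seen. The test calls of the pancreatic duct list are not reported here. Library totals of 15419232 to 17684229 counts limit precision for the rarest members, such as Muc16 and Bnc1 with 18 and 23 reads in EPS 3.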

Additional observations from a re-analysis of the deposited data

How the results depend on the processing

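Over 16 alternatives for each of the 10 genes, 135 of 160 log2 fold changes kept their direction and their side of the threshold. Of the rest, 8 were newly called and 17 changed sign. No call could be lost, since 0 of the 10 genes were called in the main edgeR fit. With library totals in place of TMM, which shifted the median log2 fold change of all genes by 0.425, 1 gene was called higher (Wt1) and the fold changes of Upk1b (0.16), Rspo1 (0.30) and Gpm6a (0.21) turned positive. With limma-voom 1 gene was called lower (Upk3b, -1.57), and Msln (-0.11) and Muc16 (-0.15) turned negative. With controls 1 and 2 averaged, Rspo1 turned to 0.014. Leaving out 1 library at a time gave 0 to 2 genes called higher and 0 to 1 lower, all without EPS 3. The log2 fold changes then ranged from -0.20 to 0.50 for Msln, -1.60 to -0.86 for Upk3b, -0.53 to 0.16 for Upk1b, -0.94 to 0.046 for Lrrn4, -0.13 to 1.63 for Krt19, 0.29 to 0.83 for Wt1, -0.95 to -0.23 for Bnc1, -0.27 to 0.083 for Rspo1, -0.33 to 0.00998 for Gpm6a and -0.12 to 0.98 for Muc16. Without both EPS 3 and control 3, an exclusion chosen after seeing the data, 1 gene was called higher (Wt1) and 1 lower (Upk3b). Except for the effect of fewer samples, the cause was not tested.

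The values do not settle whether the replicate numbers pair the samples. Deviations from the group means correlated at 0.201, -0.0952 and 0.236 for numbers 1 to 3. In 2 of 3 pairs both samples correlated best with their own number. With the replicate block 8113 genes were called in place of 8333, 1 of the 10 was called lower (Upk3b, -1.50, edgeR adjusted p = 0.0239) and Msln was at -0.0436.

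Among the other mesothelial genes, calls ranged from 6 to 8 higher and from 3 to 6 lower.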
